A study of Sus scrofa with 48 samples.

Results

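Transcripts of autophagy and lysosome genes, listed under 42 symbols, were followed in fat taken from under the skin (subcutaneous adipose tissue, SCAT) of 48 pigs. A gene entered through the array probes that carry its symbol, and its level was that of its brightest probe, taken among the probes that the scanner software found well above background in 9 or more of the 12 pigs of a group. In all, 34 of the 42 symbols had a probe, all 34 passed this filter, and they made up 34 of the 11094 genes tested on the array. They comprised 15 autophagy genes, 10 lysosomal hydrolases, 6 proton pump genes, 2 lysosomal membrane genes and the transcription factor TFEB. The 10 hydrolases are counted with PSAP, which encodes helpers of hydrolases and not an enzyme. No probe carried the symbols ULK2, ATG4B, ATG12, ATG16L1, MAP1LC3A, MAP1LC3B, CTSL or GLB1. The RefSeq table lists CTSL and CTSL1 as older names of 1 gene, so CTSL was read through the probes named CTSL1.

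Autophagy encloses cytoplasm in a membrane, the autophagosome, which then fuses with the lysosome. In the lysosome, acid hydrolases break down protein, lipid and glycogen, and a proton pump of many subunits, the V-ATPase, keeps the lumen acidic. In fat cells lysosomal acid lipase can release fatty acids from stored lipid beside the neutral lipases, and macrophages of adipose tissue are rich in lysosomes. TFEB is known as a transcription factor of lysosomal and autophagy genes.

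The pigs were Large White barrows, 132 days old per the labels, from lines selected for low (RFIneg) or high (RFIpl) residual feed intake (RFI), the feed eaten beyond that predicted from growth. They were fed freely on a diet rich in fat and fiber (HF) or a diet rich in starch and poor in fat and fiber (LF), with 12 pigs per diet and line and 1 array per pig. The diets thus differed in fat, starch and fiber together, and these cannot be told apart. RNA came from pieces of whole tissue, so that fewer cells of a type and less RNA per cell cannot be told apart either.

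Values are the log2 of the background-subtracted spot signal minus the median of the array, hence 0 is the median kept probe of that array. Levels of different genes come from different probes and were not compared. Between 62.2% and 81.9% of probes were well above background per array, and each array correlated with the mean of the other arrays of its group at r = 0.98 or more over all genes. The 48 arrays lay on 6 slides scanned on 2 dates, and each slide held 2 arrays of each group. A gene was called when its raw p was under 0.01, its fold change over 1.1 and its Benjamini-Hochberg adjusted p under 0.08 in limma, the cut-offs of the study. The number of arrays limits the precision, and p-values measure the spread between pigs.

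The diet called 6 of the 34 members (17.6%), and all 6 were under-expressed with the HF diet. Over all genes tested, 12.6% were called by diet, 9.33% as lower and 3.28% as higher in HF pigs. All 6 called members were lysosomal hydrolases. They were the cathepsins CTSA, CTSB, CTSD and CTSH, the acid lipase LIPA and the acid glucosidase GAA, with log2 fold changes between -0.29 and -0.15. Of the 15 autophagy genes, none was called by limma or by an unmoderated analysis of variance refitted to the same values. In limma 2 of them had a raw p under 0.05. The paper, however, lists UVRAG, 1 of these 15, beside CTSA and CTSD among genes under-expressed with HF in both subcutaneous and perirenal fat. Of the 6 proton pump genes none was called by limma, 1 was called by the analysis of variance, and 4 had a raw p under 0.05. Over all genes 25.9% had a raw p under 0.05 by diet. With a block in the limma fit, 2 proton pump genes were called with the slide (ATP6V0C and ATP6V1A) and 1 with the scan date or the replicate number (ATP6V0C).

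The median log2 fold change between diets was -0.19 over the hydrolases, -0.13 over the proton pump genes, -0.09 over the autophagy genes and -0.04 over all genes tested. A value below 0 was found for 9 of 10 hydrolases, 5 of 6 proton pump genes, 14 of 15 autophagy genes and 6912 of the 11094 genes. Scaling on the 75th percentile or quantile normalization moved the median of the autophagy genes to -0.04 under both, with 11 and 12 of 15 below 0, that of the proton pump genes to -0.09 and -0.08, and that of the hydrolases to -0.15 under both. The members shared arrays and pigs and are not independent of each other.

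**Figure D1:**
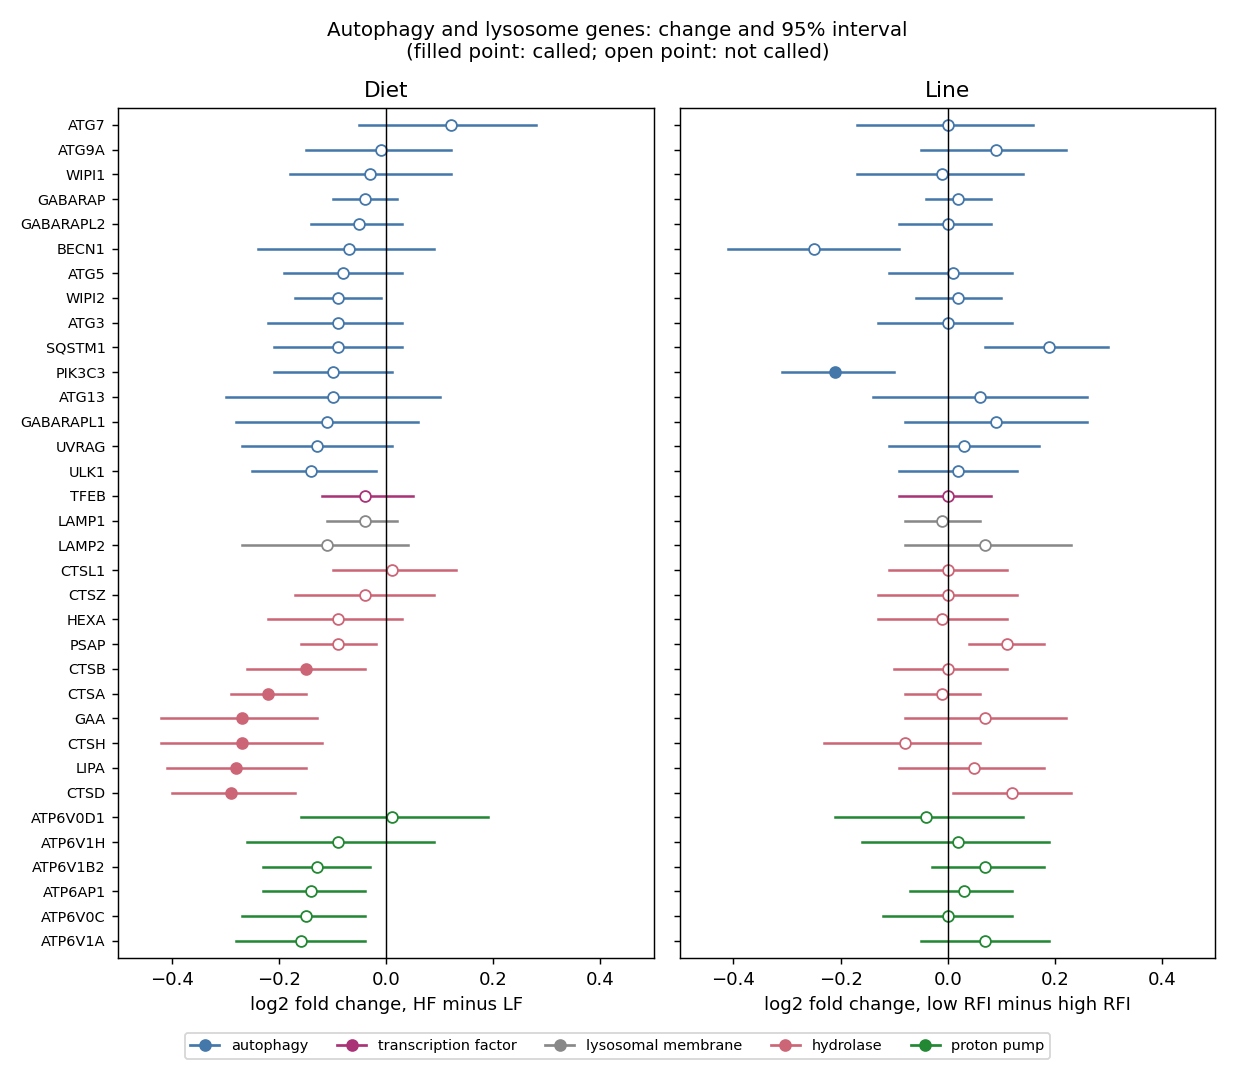
Log2 fold change of the 34 members between diets (left, HF minus LF) and between lines (right, low minus high RFI), each from 48 arrays, with 95% intervals as bars and colours for the kind of gene. Filled points are called genes: 6 hydrolases between -0.29 and -0.15 by diet, and PIK3C3 at -0.21 by line.

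Among the hydrolases, CTSA encodes a serine carboxypeptidase that also protects other lysosomal enzymes from degradation. Its brightest probe is shown here in part because it holds AATAAA, the usual polyadenylation signal (in capitals), which a script also found in 10.3% of all 60305 probes, against 4.32% with the reverse complement TTTATT. The GAA probe holds the same hexamer.
CTSA: cagtgattatggAATAAAattgggtacaat
GAA: ttggctgttatgAATAAAgacgtgagcaat

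In low RFI pigs, the CTSA value ran from 5.64 to 5.85 (median 5.79) with the HF diet and from 5.81 to 6.15 (median 6.03) with the LF diet. In high RFI pigs, it ran from 5.58 to 6.03 (median 5.83) with HF and from 5.71 to 6.20 (median 5.99) with LF. The ranges of the diets met in both lines, yet 23 of the 24 LF pigs were above the HF mean and 23 of the 24 HF pigs below the LF mean. CTSA was under-expressed by -0.22 log2 (SE 0.04, adjusted p = 6.14e-05), 1.16-fold lower in HF pigs, and diet took up 49.1% of its variance. This was the lowest adjusted p of the 34 members.

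CTSD encodes cathepsin D, the main aspartic protease of the lysosome. Its brightest probe and a dimmer probe were complementary over 58 bases, so that they read opposite strands. A stretch of 30 of these bases is given as it stands on each probe, with the same 12 bases in capitals on both strands.
CTSD, brightest probe: ttctgttccGTGGTGTCCCTCcctggttcc
CTSD, probe of the other strand: ggaaccaggGAGGGACACCACggaacagaa

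With the brightest probe, the CTSD value in low RFI pigs ran from 4.95 to 5.34 (median 5.12) with HF and from 5.16 to 5.67 (median 5.39) with LF. In high RFI pigs it ran from 4.66 to 5.32 (median 5.04) with HF and from 4.69 to 5.68 (median 5.35) with LF. All 24 HF pigs were below the LF mean and 22 of the 24 LF pigs above the HF mean, although the ranges overlapped. The difference was -0.29 log2 (SE 0.06, adjusted p = 0.000702), 1.22-fold lower in HF pigs and the largest of the members. The probe of the other strand gave -0.37 (SE 0.08, adjusted p = 0.00119 over all kept probes), and which RNA gave its signal was not tested. It belongs to a series of probes with names in O, to which the brightest probes of ATG3, ATG9A, UVRAG, WIPI1, GABARAP, GABARAPL2, SQSTM1, TFEB, ATP6V0C and ATP6V0D1 also belong, and the strand of these was not tested either.

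LIPA encodes lysosomal acid lipase, which hydrolyses cholesteryl esters and triglycerides. The central 30 bases of its brightest probe identify the stretch measured.
LIPA: catctctgtgtcaggaagcccatgtttgcc

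The LIPA value in low RFI pigs ran from 5.25 to 6.18 (median 5.77) with HF and from 5.55 to 6.14 (median 5.98) with LF. In high RFI pigs it ran from 5.48 to 5.87 (median 5.60) with HF and from 5.46 to 6.36 (median 5.94) with LF. The diets overlapped in both lines, with 22 of the 24 HF pigs below the LF mean. The difference was -0.28 log2 (SE 0.07, adjusted p = 0.00361), or 1.21-fold lower with HF.

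GAA encodes the enzyme that breaks down glycogen in the lysosome. Its value in low RFI pigs ran from 5.15 to 5.85 (median 5.48) with HF and from 5.49 to 6.31 (median 5.74) with LF, and in high RFI pigs from 4.88 to 6.01 (median 5.43) with HF and from 5.14 to 6.12 (median 5.65) with LF. Here too the ranges overlapped, and 21 of the 24 LF pigs were above the HF mean. The difference was -0.27 log2 (SE 0.07, adjusted p = 0.0117), 1.21-fold lower with HF.

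CTSH encodes a cysteine protease with aminopeptidase activity. Its probes are shown because the brightest probe and the next share 31 bases up to a run of C (in capitals) that is 3 bases long in the first and 4 in the second.
CTSH, brightest probe: aaactcatggggtCCCagtggggaatgaat
CTSH, next probe: aaactcatggggtCCCCagtggggaatgaa

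The CTSH value in low RFI pigs ran from 3.06 to 3.91 (median 3.52) with HF and from 3.48 to 4.37 (median 3.71) with LF. In high RFI pigs it ran from 3.24 to 3.84 (median 3.66) with HF and from 3.35 to 4.12 (median 3.89) with LF. The HF and LF ranges overlapped, with 20 of the 24 HF pigs below the LF mean. The difference was -0.27 log2 (SE 0.07, adjusted p = 0.0133), 1.2-fold lower with HF, and all 3 CTSH probes gave -0.27.

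CTSB, a cysteine protease like CTSH, had the highest adjusted p of the 6. Its value in low RFI pigs ran from 6.95 to 7.60 (median 7.21) with HF and from 7.11 to 7.62 (median 7.45) with LF, and in high RFI pigs from 6.94 to 7.56 (median 7.29) with HF and from 7.11 to 7.70 (median 7.39) with LF. The ranges largely overlapped, and 18 of the 24 HF pigs were below the LF mean. The difference was -0.15 log2 (SE 0.05, adjusted p = 0.0577). It was not called under 8 of the alternative settings, among them scaling on the 75th percentile (adjusted p = 0.143), quantile normalization (0.111) or the mean of its 7 probes (0.138).

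**Figure D2:**
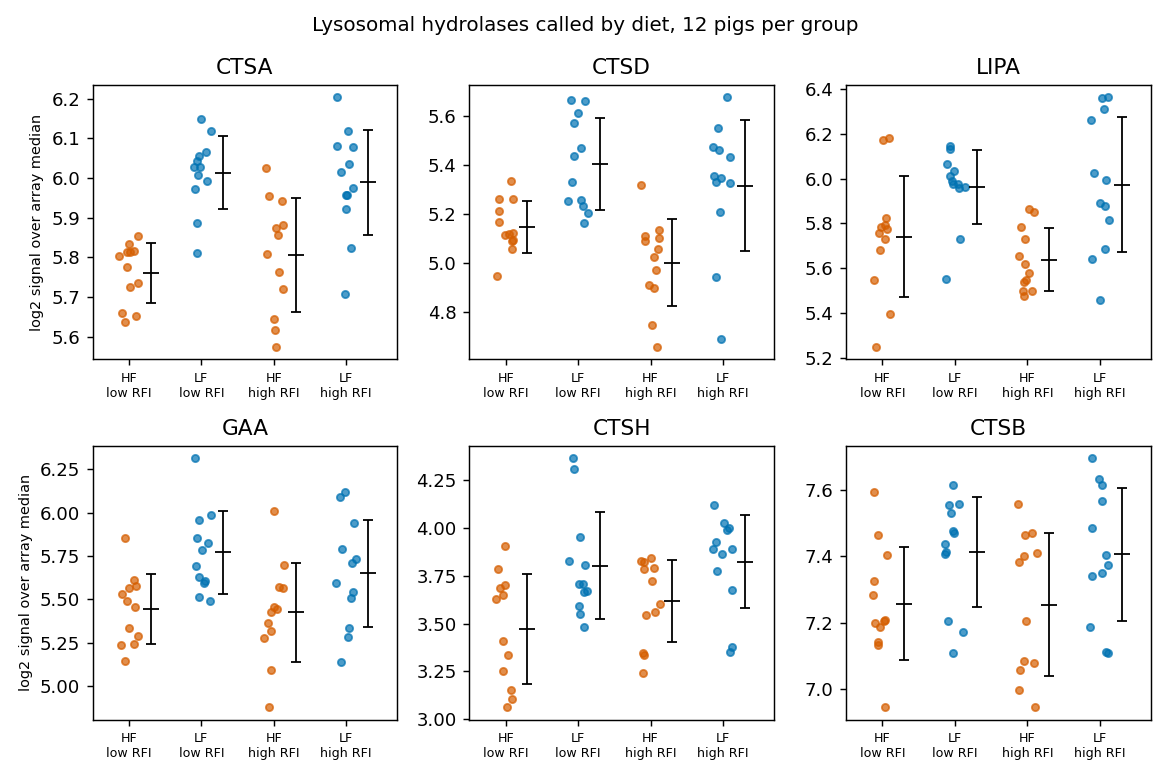
Log2 signal over the array median in each pig for the 6 hydrolases called by diet, with the mean and SD of each group of 12 beside the points. In each line the HF mean is below the LF mean for all 6 genes, and the points of the diets overlap.

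The other 4 genes of the hydrolase group, among them PSAP, which encodes no hydrolase, were not called by diet. PSAP, whose product is cut into the saposins that help degrade sphingolipids, gave -0.09 (SE 0.03, adjusted p = 0.089), HEXA, a hexosaminidase subunit, gave -0.09 (SE 0.06, adjusted p = 0.338), and the cathepsin gene CTSZ gave -0.04 (SE 0.07, adjusted p = 0.739). As for CTSD, a dimmer CTSZ probe read the opposite strand, over 39 shared bases, and it gave -0.22 (SE 0.14, adjusted p = 0.321 over all kept probes). The 10 probes named CTSL1 on the array belong to a gene that the RefSeq table now names CTSV, with CTSL and CTSL1 among its older names. Its log2 fold change was 0.01, with a 95% interval from -0.10 to 0.13. None of its probes was called, and their values ran from -0.01 to 0.06. Whether CTSL1 differed from the other cathepsins in its response was not tested.

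The dimmer probes of the called genes were read too. All 3 kept probes of CTSA, all 3 of CTSD, all 3 of CTSH, all 3 of GAA, all 4 of LIPA and all 7 of CTSB were below 0. Calls over all 44356 kept probes, of which 13.1% were called by diet, were made for 2 probes of CTSA, 3 of CTSD, 3 of CTSH, 2 of GAA, 3 of LIPA and 1 of CTSB. Among all 99 kept probes of the members, 17 were called by diet and none of them was higher in HF pigs. In 4 pairs of probes with identical sequence, of ATG5, ATP6V1H, HEXA and CTSB, the diet values differed by 0.04 at most.

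**Figure D3:**
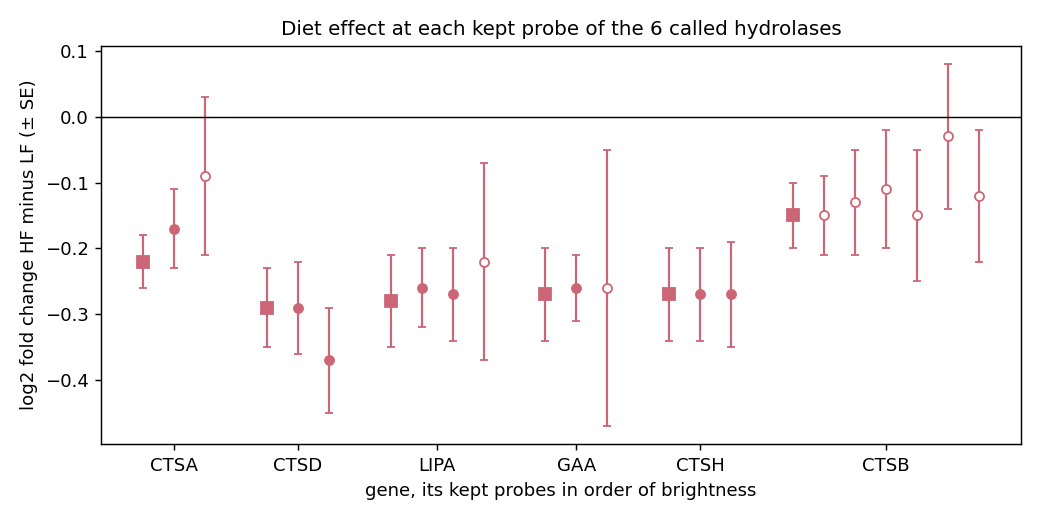
Log2 fold change between diets (HF minus LF, with SE bars) at each kept probe of the 6 called hydrolases, ordered from the brightest probe of a gene (square) to the dimmest, with filled symbols for called probes. All probes lie below 0, and the dimmest probes of CTSA, LIPA and GAA have the widest bars.

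Of the V-ATPase genes, 4 had a raw p under 0.05 without being called. ATP6V1A, the catalytic subunit of the outer V1 part, had a median of 0.03 in the 24 HF pigs (range -0.29 to 0.36) and 0.21 in the 24 LF pigs (range -0.30 to 0.60). Its difference was -0.16 log2 (SE 0.06, raw p = 0.0102, adjusted p = 0.0734), so only the raw p missed its cut-off, and its dimmer probe was called at -0.19 (SE 0.05, adjusted p = 0.0142). ATP6V1A was called with the mean of its probes (-0.1751, adjusted p = 0.0241), the slide as a block (0.0568) and the analysis of variance (0.0687). With the deposited table it was -0.0898 (adjusted p = 0.245), with median spot signals left unsubtracted -0.0926 (0.237), and with the array position as a block -0.1021 (0.361). The ranges of the diets overlapped, with the highest LF pigs above every HF pig.

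ATP6V0C, which forms the proton-carrying ring in the membrane, had a median of 5.76 with HF (range 5.39 to 6.21) and 5.92 with LF (range 5.45 to 6.28), a difference of -0.15 (SE 0.06, raw p = 0.0103, adjusted p = 0.0738). It was called with the slide, the scan date or the replicate number as a block (adjusted p = 0.0341, 0.0326 and 0.029), on the first scan date alone (0.0535), with unsubtracted signals (0.0665) and with the deposited table (0.0579). ATP6AP1, an accessory subunit, had a median of 5.46 with HF (range 5.18 to 5.71) and 5.61 with LF (range 5.29 to 5.93). Its difference of -0.14 (SE 0.05, adjusted p = 0.0538) passed both p cut-offs and missed only the fold change of 1.1, and it was called with the deposited table (-0.1409, adjusted p = 0.0492) and with unsubtracted signals (-0.1438, 0.0609). For both genes the diets overlapped.

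ATP6V1B2, another V1 subunit, gave -0.13 (SE 0.05, adjusted p = 0.095), ATP6V1H gave -0.09 (SE 0.09, adjusted p = 0.564) and ATP6V0D1 gave 0.01 (SE 0.09, adjusted p = 0.946), the latter with a sign that changed between settings. The 4 genes ATP6V1A, ATP6V0C, ATP6AP1 and ATP6V1B2, were all called under array weights and also without HF RFIpl replicate 2, the array with the lowest share of probes above background, or without LF RFIpl replicate 12, the array least like its group. Each of these settings called 10 members by diet, beside 18.5% of all genes with array weights, 13.1% without HF RFIpl replicate 2 and 14% without LF RFIpl replicate 12.

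Among the genes that start the autophagosome, ULK1, the kinase at the head of the pathway, had the largest difference. Its median was 4.69 with HF (range 4.34 to 5.10) and 4.82 with LF (range 4.58 to 5.32), a difference of -0.14 (SE 0.06, adjusted p = 0.115) with overlapping groups. With the mean of its 3 probes ULK1 was called at -0.23 (adjusted p = 0.0261). Its other probes, well above background on 46 and 47 of the 48 arrays, gave -0.33 (SE 0.14) and -0.21 (SE 0.08), the latter called.

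UVRAG and BECN1, partners of the lipid kinase PIK3C3, gave -0.13 (SE 0.07) and -0.07 (SE 0.08) between diets, and PIK3C3 itself gave -0.10 (SE 0.05). ATG13, a partner of ULK1, gave -0.10 (SE 0.10), and ATG9A, a membrane protein of the autophagosome, gave -0.01 (SE 0.07). WIPI2 and WIPI1, which bind the lipid made by PIK3C3, gave -0.09 (SE 0.04, raw p = 0.0359, adjusted p = 0.159) and -0.03 (SE 0.08). None of these was called, and the values of BECN1, ATG9A and WIPI1 turned above 0 under some settings.

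Of the conjugation genes, ATG7, the enzyme that activates the ubiquitin-like proteins of the pathway, was the only autophagy gene above 0, at 0.12 (SE 0.08, adjusted p = 0.394), and was below 0 on the first scan date alone. ATG3 gave -0.09 (SE 0.06) and ATG5 gave -0.08 (SE 0.06). Neither passed the test.

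The ATG8 family coats the autophagosome and holds its cargo through receptors. GABARAP had a median of 7.26 in HF pigs (range 7.10 to 7.48) and 7.30 in LF pigs (range 7.08 to 7.41), and its difference of -0.04 (SE 0.03, adjusted p = 0.390) had a 95% interval from -0.10 to 0.02. GABARAPL1 had a median of 5.08 with HF (range 4.52 to 5.65) and 5.25 with LF (range 4.49 to 5.66), and gave -0.11 (SE 0.08, adjusted p = 0.440). GABARAPL2 had a median of 5.25 with HF (range 4.90 to 5.46) and 5.34 with LF (range 5.04 to 5.57), and gave -0.05 (SE 0.04, adjusted p = 0.419). For these 3 members of the family the HF and LF ranges overlapped. The cargo receptor SQSTM1 had a median of 5.92 with HF (range 5.48 to 6.20) and 5.97 with LF (range 5.52 to 6.39), and gave -0.09 (SE 0.06, adjusted p = 0.331). The diets overlapped for all these genes, and the values of GABARAP, GABARAPL2 and SQSTM1 turned above 0 under 1 alternative setting each.

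TFEB had a median of 4.63 with HF (range 4.44 to 4.90) and 4.68 with LF (range 4.41 to 5.07). Its difference was -0.04 (SE 0.04, adjusted p = 0.640), with a 95% interval from -0.12 to 0.05, and it turned above 0 under 3 settings, the 75th percentile, quantile normalization and the mean of its probes. The lysosomal membrane glycoproteins LAMP1 and LAMP2 gave -0.04 (SE 0.03, adjusted p = 0.429) and -0.11 (SE 0.08, adjusted p = 0.360). LAMP1 ranged from 7.14 to 7.63 with HF and from 7.24 to 7.71 with LF, and LAMP2 from 3.69 to 4.77 and from 3.84 to 4.89. The 8 LAMP2 probes disagreed in sign, from -0.11 to 0.13 between diets.

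The spread between pigs within a group was smaller for the members than over the array, with a median SD of 0.20 log2 against 0.27 over all genes. It was lowest for GABARAP (0.09), CTSA and LAMP1 (0.11 each), and highest for ATG13 (0.34). Diet took up a median of 18.5% of the variance of the hydrolases, 12.8% for the proton pump genes, 4.25% for the autophagy genes and 2.98% over all genes. The slide took up 65.9% of the variance of UVRAG and 56.0% of that of ATP6V1H, but 4.19% of that of CTSA and 2.21% of that of CTSD. Slides were balanced over the groups, but array positions within a slide were not balanced over the diets.

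The array scans of the 2 dates were compared gene by gene. CTSA gave -0.21 and -0.22, CTSD -0.28 and -0.29, LIPA -0.29 and -0.27, CTSH -0.30 and -0.24, CTSB -0.16 and -0.14, and GAA -0.36 and -0.19 on the first and second date. With 24 arrays each, the first date alone called 6 members by diet (5.95% of all genes) and the second date alone called CTSA only (2.36% of all genes). ULK1 gave -0.02 and -0.25, SQSTM1 0.03 and -0.22, GABARAPL1 -0.01 and -0.21, and ATG7 -0.03 and 0.26. The difference between dates was not tested.

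**Figure D4:**
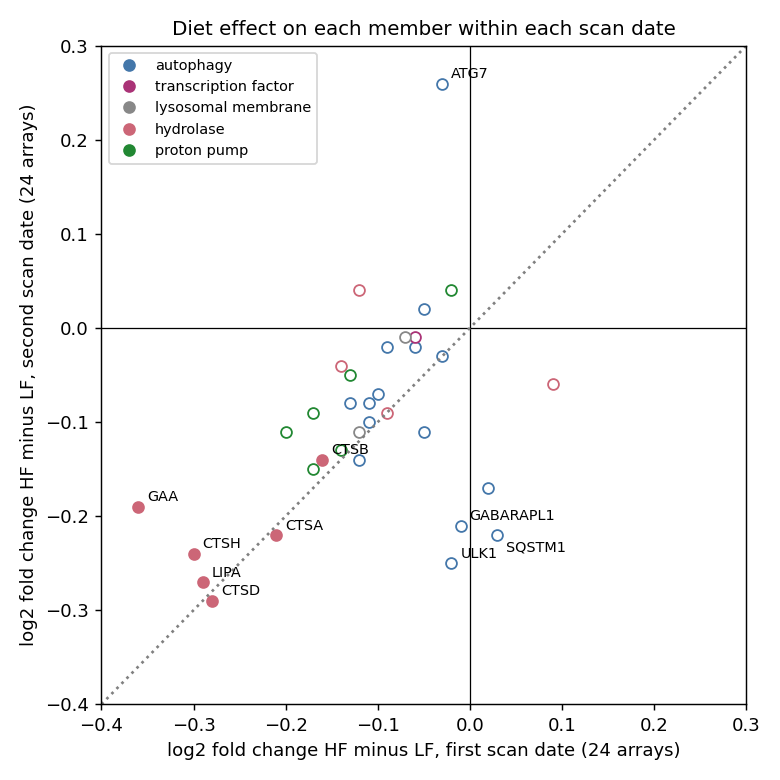
Log2 fold change between diets (HF minus LF) of each of the 34 members on the arrays of the first scan date (x axis, 24 arrays) and of the second (y axis, 24 arrays), coloured by kind of gene and filled where called over all 48 arrays. The 6 called hydrolases lie near the dotted line of equal values, GAA being the farthest from it, and ULK1, SQSTM1, GABARAPL1 and ATG7 lie away from it.

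Within low RFI pigs, the diet called 1 member, CTSA at -0.25 (SE 0.05, adjusted p = 0.0104), beside 2.44% of all genes (1.81% lower, 0.631% higher). Within high RFI pigs it called 3 members, CTSD at -0.31 (SE 0.08, adjusted p = 0.0403), CTSA at -0.18 (SE 0.05, adjusted p = 0.0597) and LIPA at -0.34 (SE 0.09, adjusted p = 0.063), beside 1.5% of all genes (1.24% lower, 0.252% higher). Within low RFI pigs the count went to 5 with the slide, scan date or replicate block, where 4.98%, 3.73% and 5.97% of all genes were called, and to 0 with the array position as a block, where no gene was. Within high RFI pigs it went to 0 with the position block (0.252% of all genes) and with quantile normalization (1.25%). The interaction of diet and line tests whether the lines responded differently. It called 0 members and 0 genes (0% of all genes) with limma and 0 members with the analysis of variance, and no member and 99 genes had an interaction with a raw p under 0.05. The largest among the members was that of ATG13 at 0.40 (SE 0.20, raw p = 0.0516). For the 6 called hydrolases the interaction lay between -0.13 (CTSH) and 0.12 (LIPA), and its 95% interval ran from -0.21 to 0.07 for CTSA, the narrowest of them.

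The line comparison asked which genes differ between efficient and less efficient pigs. It called 1 member of 34 (2.94%), beside 1.18% of all genes tested (0.388% lower and 0.793% higher in low RFI pigs). This was PIK3C3, the class III phosphatidylinositol 3-kinase that makes the lipid on which autophagosomes form. The central 30 bases of its brightest probe identify the stretch measured.
PIK3C3: tgcttccttgcatatcattgcttaaatata

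With the HF diet, the PIK3C3 value ran from 1.75 to 2.24 (median 1.89) in low RFI pigs and from 1.92 to 2.40 (median 2.11) in high RFI pigs. With the LF diet, it ran from 1.70 to 2.43 (median 2.07) in low RFI pigs and from 1.86 to 2.56 (median 2.25) in high RFI pigs. The lines overlapped in both diets, but 21 of the 24 high RFI pigs were above the mean of the low RFI pigs. PIK3C3 was under-expressed in low RFI pigs by -0.21 log2 (SE 0.05, adjusted p = 0.0432), 1.15-fold lower.

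The probes of PIK3C3 did not all move together. A 2nd probe was called at -0.20 (SE 0.06, adjusted p = 0.068 over all kept probes, 1.37% of which were called by line), while the other 3 gave -0.09, -0.07 and 0.05. With the mean of the 5 probes the difference was -0.10 and was not called (adjusted p = 0.290). It was also not called within either scan date (-0.25 and -0.17) or with the array position as a block (-0.18, adjusted p = 0.158).

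BECN1, which binds PIK3C3, had a median of 3.60 in the 24 low RFI pigs (range 3.20 to 4.18) and 3.86 in the 24 high RFI pigs (range 3.18 to 4.33). Its difference of -0.25 (SE 0.08) was not called (adjusted p = 0.149), and its dimmer probe gave 0.04 (SE 0.12). SQSTM1 had a median of 5.99 in low RFI pigs (range 5.63 to 6.34) and 5.86 in high RFI pigs (range 5.48 to 6.39), a difference of 0.19 (SE 0.06, adjusted p = 0.131). With the replicate number as a block both were called (adjusted p = 0.0637 for BECN1 and 0.0207 for SQSTM1), and with array weights too (0.0295 and 0.0455), but with the slide or the scan date as a block neither was. The lines overlapped for both genes, and SQSTM1 is read by 1 probe only.

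CTSD gave 0.12 between lines (SE 0.06, adjusted p = 0.446), with a median of 5.24 in the low RFI line (range 4.95 to 5.67) and 5.12 in the high RFI line (range 4.66 to 5.68). PSAP gave 0.11 (SE 0.03, adjusted p = 0.165), with a median of 8.32 in low RFI pigs (range 8.09 to 8.56) and 8.25 in high RFI pigs (range 7.89 to 8.42), and all 7 PSAP probes were above 0. The median over the members was 0.01, against 0.02 over all genes. Within the HF diet and within the LF diet, the line called 0 members with limma and with the analysis of variance (3 and 5 members, 8.82% and 14.7%, had a raw p under 0.05, against 4.67% and 6.43% of all genes), beside 0.00901% of all genes with HF, higher in low RFI pigs, and 0.0631% with LF (0.018% lower, 0.0451% higher).

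**Figure D5:**
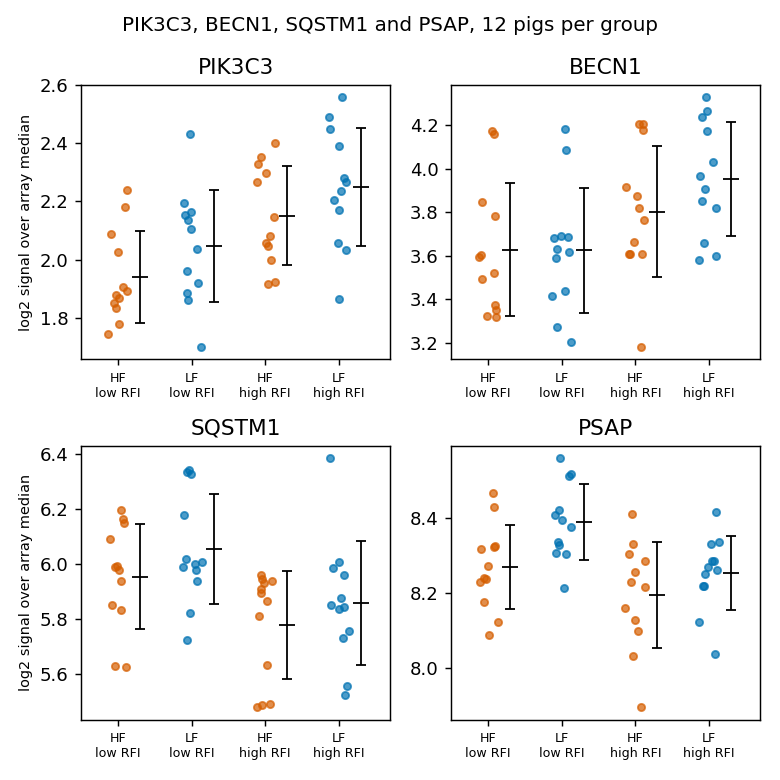
Log2 signal over the array median in each pig for PIK3C3, BECN1, SQSTM1 and PSAP, with the mean and SD of each group of 12 beside the points. PIK3C3 and BECN1 have lower means in low RFI than in high RFI pigs of the same diet, SQSTM1 and PSAP have higher ones, and the points of the lines overlap.

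The rest of the pathway was read from lists of 140 other autophagy and lysosome genes, of which 106 were tested. The diet called 14 of them (13.2%), 11 lower and 3 higher in HF pigs, a share near the 12.6% of all genes. The median over the 106 genes was -0.06, against -0.04 over all genes. The 3 called higher were hydrolases: the tripeptidyl peptidase TPP1 (0.29, SE 0.08, adjusted p = 0.0164), the arylsulfatase ARSB (0.24, SE 0.08, adjusted p = 0.0419) and the collagen-degrading cathepsin CTSK (0.20, SE 0.07, adjusted p = 0.0681). Among those called lower, the 3 with the largest change were the autophagy receptor OPTN (-0.26, SE 0.07, adjusted p = 0.00901), the lysosomal membrane protein CLN3 (-0.23, SE 0.08, adjusted p = 0.0545) and the fucosidase FUCA1 (-0.22, SE 0.05, adjusted p = 0.00517). The split into 11 lower and 3 higher depended on the scaling. Scaling on the 75th percentile gave 3 lower and 5 higher, and quantile normalization gave 6 lower and 4 higher. Over all genes, 52.1% and 39.5% of the called genes were then higher, against 26% in the main fit. Under every other setting but the second scan date alone, more of the list were called lower than higher.

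Of these lists, the other hydrolases had 5 of 31 genes called (16.1%), 3 higher and 2 lower. That list also holds NPC2, which is not a hydrolase. Of 12 other proton pump genes 3 were called, all lower, of 23 other autophagy genes 3, all lower, and of 16 genes of upstream control 2, both lower. Of 24 genes of the lysosomal membrane and of sorting, CLN3 alone was called. The medians by diet were -0.06 for the other hydrolases, -0.06 for the other proton pump genes and -0.07 for the other autophagy genes. The order of these kinds among the members was thus not seen outside them. A raw p under 0.05 was found for 10 of 31, 4 of 12 and 11 of 23 of these genes, against 25.9% of all genes. The line called 1 of the 106 genes (0.943%, against 1.18% of all genes), the glucosaminidase NAGLU, higher in low RFI pigs by 0.24 (SE 0.06, adjusted p = 0.0413).

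Markers of cell types were read beside these results. Of 15 macrophage markers tested, 13 were well above background on all arrays, none was called by diet (0 with a raw p under 0.05), and their median was 0.02. Their summed linear level ran from 35.0 to 128 times the array median with HF and from 39.6 to 153 with LF in the low RFI line, and from 51.0 to 139 with HF and from 49.6 to 124 with LF in the high RFI line. The sums of the diets overlapped over most of their range. By line, their median was -0.14, with 12 of 15 below 0 in low RFI pigs, 2 with a raw p under 0.05 and none called.

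Of 14 adipocyte markers, LEP, which encodes leptin, and CEBPA, a transcription factor of fat cells, were called lower with HF, at -0.67 (SE 0.16) and -0.14 (SE 0.05). These were 14.3% of the list, near the 12.6% of all genes called by diet. The list had 4 markers above 0 and 10 below, with a median of -0.08. Its summed level had medians of 3920 with HF and 4250 with LF in the low RFI line, and 3620 with HF and 3880 with LF in the high RFI line, with overlapping ranges between 3140 and 4550. Of 8 stromal markers, COL1A2 and PDGFRA (25% of the list) were called higher with HF, at 0.36 (SE 0.13) and 0.31 (SE 0.11). By diet 7 of the 8 stromal markers were above 0, with a list median of 0.18. Their summed level had medians of 1890 and 1980 in the HF groups and 1670 and 1710 in the LF groups, with overlapping ranges between 1010 and 3020. None of 6 endothelial, 7 lymphocyte, 10 skeletal muscle or 3 red blood cell markers was called by diet, and the medians of these lists were 0.00, 0.03, -0.29 and -0.12. All 10 muscle markers were below 0, with a lowest adjusted p of 0.273. By line, none of the markers of these lists was called either. In low RFI pigs 11 of 14 adipocyte markers were above 0 (median 0.09, 3 with a raw p under 0.05), 7 of 8 stromal markers were below 0 (median -0.08) and 7 of 10 muscle markers were above 0 (median 0.17). The part of these cell types in the values of the hydrolases by diet and of PIK3C3, BECN1, SQSTM1, CTSD and PSAP by line was not tested.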

How the data were processed

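The authors hybridized Cy3-labelled RNA of each pig to 1 array of porcine probes and read the spots in Agilent Feature Extraction 10.7.3.1. In the deposited scanner files the signals are intensity values on a linear scale, and the processed signal used here is background-subtracted by that software. The authors also deposited log2 values of 38987 probes, made with R 2.10.0 per the labels. They equalled the log2 median signal minus the array median in 48 of 48 columns (largest difference 4.87e-09) and served as an alternative.

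Control spots were left out, the 227 spots with a non-uniformity or population outlier flag were not used, and no spot was saturated. Of 60305 probes, 44356 were kept. Values were log2 processed signals minus the array's median over kept probes. Probes were named through the RefSeq table of Sscrofa11.1 and the array files, which gave 11094 genes. The array files hold no probe position, and no genome, promoter or protein sequence was used here, so the planned promoter and protein comparisons were not made. Probe strand was checked only between probes of 1 gene that shared at least 20 bases.

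Groups came from the sample titles. Diet, line and interaction were fitted to all 48 arrays with limma 3.58.1 in R 4.3.3 (lmFit, eBayes with intensity trend, two-sided), with Benjamini-Hochberg adjustment over all genes. The fit was tested on simulated data, with 50 changed genes of each size. Changes of 0.2 log2 were called for 40% of genes when up and 48% when down, and those of 0.5 for 94% and 88%. Far fewer genes changed there than were called here, so these shares do not carry over to the members. The alternatives were other scalings, backgrounds, filters, probe summaries, blocks, array weights, an unmoderated analysis of variance, the deposited table and other cut-offs.

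The members and lists were chosen with earlier results of these data known. Any tested member could be named. Given with values of each group or pool were all called members, the 4 uncalled members with the largest change by diet and by line, TFEB, SQSTM1, the LAMP genes and the ATG8 family, and of the other lists the 3 called genes with the largest change in each direction.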

Additional observations from a re-analysis of the deposited data

How the results depend on the processing

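Under the 20 alternatives, all members called by diet were lower in HF pigs, and 5 to 8 were called under most settings, against 6, while the share over all genes went from 8.95% with the position block to 15.2% with the replicate block in settings with all 48 arrays and equal weights. The exceptions were 1 member on the second scan date alone (2.36% of all genes) and 10 with array weights (18.5%), the latter also without HF RFIpl replicate 2 or without LF RFIpl replicate 12, chosen after seeing the data. CTSA was called under every setting, and CTSD, LIPA, GAA and CTSH under every setting but the second scan date alone. The median of the members by diet lay between -0.1073 and -0.0526. No label says that the replicate numbers pair the pigs, and not every same-numbered pair of arrays correlated (mean r 0.161, from -0.217 to 0.455, 45 of 72 pairs over 0.1). The mean r was 0.0906 for other numbers on the same slide and -0.0249 across slides, and 18 of 48 arrays correlated best with their own number. Odd numbers always lay at positions 1 to 4 of a slide and even numbers at positions 5 to 8. A pairing of pigs and a shared place on the slide thus cannot be told apart. With the replicate block 7 members were called by diet.

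The count by line, 1, went to 0 with the mean of all probes, with the array position as a block and within either scan date, and to 3 with the replicate block and with array weights, which added BECN1 and SQSTM1. Over all genes the calls by line went from 131 to 290 with the replicate block and 487 with array weights, and to 52 with the position block. Within low RFI pigs the diet called 2 members with the filter on all arrays, the mean of probes, the probe-level fit and without LF RFIpl replicate 12. The shares of all genes were 3.21%, 2.18%, 2.74% and 2.71%. It called 5 with the replicate, slide or scan date block (5.97%, 4.98% and 3.73% of all genes, against 2.44%), 6 with array weights (10.5%), and 0 within either date (0.018% and 0%) and with the position block (0%). Within high RFI pigs the count of 3 (1.5% of all genes) went to 1 with the 75th percentile (1.08%), the mean of probes (1.59%) and an adjusted p under 0.05 (0.847%). It went to 0 with quantile normalization (1.25%), the position block (0.252%) and within either date (0.829% and 0%). Within LF pigs array weights called 1 member by line, beside 0.955% of all genes, against 0.0631% in the main fit. The interaction called 0 members under all settings. Of the other pathway genes the main fit called 14 by diet, 3 higher and 11 lower (1399 genes, 12.6%). The 75th percentile called 8, 5 higher and 3 lower (1192 of the 11094 genes). Quantile normalization called 10, 4 higher and 6 lower (1242 of the 11094 genes). The first date called 6, all lower, and the second 1, higher (5.95% and 2.36% of all genes). Array weights called 24, 5 higher and 19 lower (18.5%).

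Of the 34 members by diet, the value turned above 0 for TFEB with the 75th percentile (0.0045), quantile normalization (0.019) and the mean of probes (0.0038), SQSTM1 on the first date (0.0338), GABARAP with the 75th percentile (0.0009) GABARAPL2 with quantile normalization (0.0034), BECN1 on the first date (0.0205), CTSZ with the 75th percentile (0.0002) and on the second date (0.0396), WIPI1 with the 75th percentile (0.0133), quantile normalization (0.02) and the position block (0.0181), and ATG9A with the 75th percentile (0.0261), the second date (0.021), the position block (0.0344) and the deposited table (0.0013). It turned below 0 for ATG7 on the first date (-0.0329), CTSL1 on the second date (-0.0614) and with the position block (-0.0001), and ATP6V0D1 on the first date (-0.0152), with array weights (-0.0302) and without HF RFIpl replicate 2 (-0.0038) or LF RFIpl replicate 12 (-0.0227). None of these was called, and the cause was not tested. The 75th percentile moved the median of all genes by diet from -0.0394 to 0.0016 and the share of called genes that were higher from 26% to 52.1% (39.5% with quantile normalization). Beside the number of arrays, signal over background limits ATG13, whose probe was well above background on 38 of 48 arrays.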
